A study of Mus musculus with 28 samples.

Results

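The comparison sets 2 Affymetrix arrays of p63 knockout (KO) proximal stomach against 2 of wild-type (WT) distal stomach, all from Balb/c mouse embryos at E18, embryonic day 18. These 4 arrays were chosen by genotype, tissue and stage from the 28 arrays of the series. After control probe sets were left out the array held 45037 probe sets. A filter on low values kept 28866 of them, and 13613 genes were tested, each read from its probe set with the highest mean. The series holds p63 KO and WT bladder, stomach and intestine, at E15, E18 or E19, with 2 arrays in each of 14 groups. The other stomach groups, also Balb/c at E18, were KO distal stomach, which carries the same genotype as KO proximal stomach, and WT proximal stomach. The sources used here give neither the targeting allele nor the sex, the dissection boundary or how many animals were taken, and they name no treatment. No label says that both arrays of a group stem from separate embryos, although Y-linked genes, given below, differed between the arrays of each stomach group. Each p-value speaks only to the spread between these samples.

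The mouse stomach has a proximal part, the forestomach, lined by a stratified squamous epithelium, and a distal glandular part lined by a simple columnar epithelium. Glandular epithelium forms surface mucous cells, mucous neck cells, chief cells that make pepsinogen, parietal cells that pump acid, and hormone-producing endocrine cells. The transcription factor p63, encoded by Trp63, is known as a regulator of basal cells in stratified epithelia, and without it such epithelia do not form in the normal way. The comparison addresses how far the lining of the KO proximal stomach resembles glandular stomach. In the contrast of KO proximal with WT distal stomach, region and genotype differ together and cannot be told apart; KO proximal against KO distal stomach holds the genotype fixed.

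Levels are the deposited log2 values, in which a step of 1 is a 2-fold difference, and levels of different genes are not set against each other. A gene was called higher or lower when limma gave an adjusted p under 0.05 for the difference, and its error is limma's standard error (SE). Differences are log2 values of KO proximal minus WT distal stomach unless another pair is named, so a negative one means lower in KO proximal stomach. A gene was termed alike within 2-fold when the 95% confidence interval of the difference lay wholly between -1 and 1. With 2 arrays a side the smallest p an exact permutation could reach is 0.333, so the calls rest on a spread that limma pools over genes and groups. In whole tissue, fewer cells of a type and less RNA per cell cannot be told apart. The median level of an array lay between 7.48 and 7.86, and values well below it carry little information about expression, so large differences understate the change of a gene that is near the floor in 1 group.

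Trp63 itself measured 13.67 and 13.78 on the KO proximal arrays, 13.16 and 13.31 on the WT proximal arrays, 7.38 and 8.73 on the KO distal arrays and 7.03 and 7.20 on the WT distal arrays. Both proximal groups were high and both distal groups low. Against WT distal stomach the difference in KO proximal stomach was 6.61 (SE 0.38) by this probe set, and 3.47 and 6.12 by the other 2 that passed the filter. Against WT proximal stomach the difference was 0.49 by this probe set and was not called. By the other 2 Trp63 was called higher in KO than in WT proximal stomach, by 0.91 and 1.63. The position of the probe sets relative to the deleted part of the gene is not given, so the level checks nothing about the allele. Smooth muscle genes were as high in KO proximal as in WT distal arrays, Actg2 at 14.17 and 13.99 against 13.95 and 14.06, so the samples hold the muscle wall as well as epithelium, although a free-text field of the labels speaks of stem cells. Y-linked genes split the replicates alike in all 4 stomach groups: Eif2s3y was 11.97 on replicate 1 and 4.18 on replicate 2 of KO proximal stomach, and 12.01 and 4.20 on those of WT distal stomach. The 2 arrays of a stomach group therefore did not hold the same material, though the labels do not say how many embryos gave each. The 3'-to-5' difference of the actin control probe sets, a measure of RNA integrity, was 0.485 and 0.606 in KO proximal stomach, against 0.635 and 0.766 in WT distal stomach.

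Of the 13613 genes, 4477 (32.9%) were called between KO proximal and WT distal stomach, 2198 higher (16.1%) and 2279 lower (16.7%). The shares higher and lower are the background for every list count against WT distal stomach given below. At least 4-fold differences were called for 336 genes higher (2.47%) and 295 lower (2.17%). Most genes, 9819 (72.1%), were alike within 2-fold, and 1621 genes (11.9% of all) were both called and alike within 2-fold. Against KO distal stomach the count of calls was 4455 (32.7%), 2072 higher (15.2%) and 2383 lower (17.5%). With limma 0 genes (0.0%) were called between KO distal and WT distal stomach, 528 had an unadjusted p under 0.05, and 12558 (92.3%) were alike within 2-fold. Leaving out 1 distal array gave between 0 and 252 calls there, the 252 without WT distal replicate 2.

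By distance over all genes, KO proximal stomach lay about as far from glandular stomach as from its own WT region, by the median difference. Distance was the median absolute log2 difference over the 13613 genes, taken between each pair of arrays. KO proximal arrays lay 0.307 on average from KO distal arrays, 0.312 from WT large intestine, 0.318 from WT distal stomach and 0.325 from WT proximal stomach. The ranges of the 4 pairs of arrays overlapped among these groups, so their order is not settled by this measure. By root mean square difference the 4 pairs with KO distal stomach (0.925 to 1.017) all lay below those with WT proximal stomach (1.025 to 1.12), while the pairs with WT distal stomach (0.973 to 1.06) overlapped both. By the median difference KO large intestine (0.337), bladder (0.365 for KO, 0.372 for WT) and small intestine (0.405 for KO, 0.419 for WT) had larger averages. By root mean square difference KO bladder (1.035) and WT bladder (1.043) instead averaged below WT proximal stomach (1.066). The 2 KO proximal arrays differed from each other by 0.153, and the 2 WT distal arrays by 0.209.

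**Figure D1:**
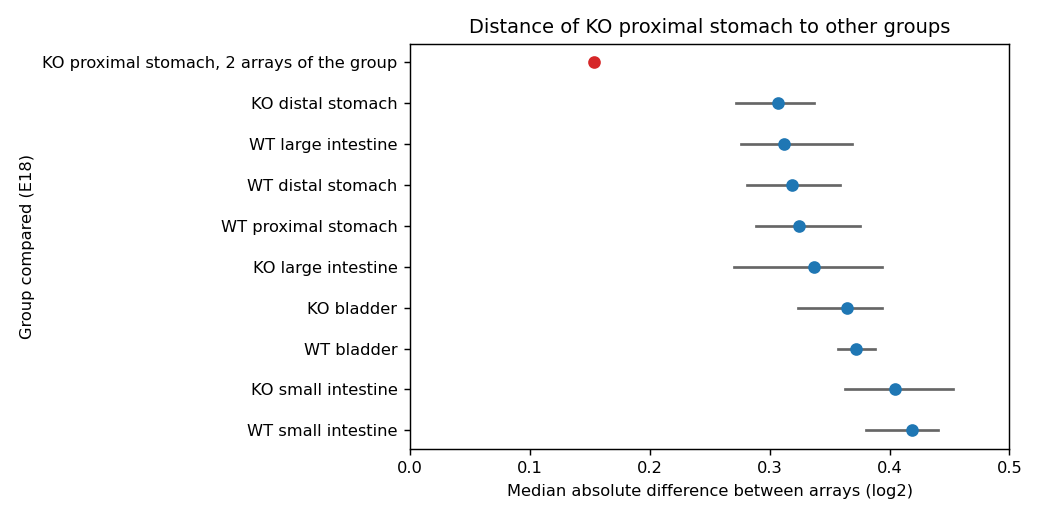
Distance of the KO proximal stomach arrays to each other E18 group, as the median absolute log2 difference over 13613 genes; points are means over the 4 pairs of arrays, lines run from the lowest to the highest pair, and the top point is the single pair within KO proximal stomach. The averages for KO distal (0.307) and WT distal stomach (0.318) lie close to that for WT proximal stomach (0.325), with overlapping lines, and all lie above the 0.153 between the KO proximal arrays.

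Products of gastric surface mucous cells were low in KO proximal stomach. Of 22 genes tested in this list, 17 were called lower and 1 higher than in WT distal stomach, and the list's median difference was -3.25, beside -0.01 over all genes. The 3 gastrokine genes, which encode secreted proteins of the stomach, lie near each other on chromosome 6 and were all among the 15 largest decreases. Their promoter sequences are shown because these neighbouring genes moved together. They are from RefSeq (mouse GRCm38.p6), run 5′ to 3′ on the gene's own strand from 250 bases before the gene start to 10 bases after it, and carry in capitals each AGATAA, a 6-base form of the motif bound by Gata factors.
Gkn1: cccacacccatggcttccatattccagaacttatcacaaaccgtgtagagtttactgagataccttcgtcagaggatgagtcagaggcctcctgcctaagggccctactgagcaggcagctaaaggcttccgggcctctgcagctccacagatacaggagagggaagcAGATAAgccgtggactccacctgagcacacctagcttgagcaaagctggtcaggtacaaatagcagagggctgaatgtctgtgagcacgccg
Gkn2: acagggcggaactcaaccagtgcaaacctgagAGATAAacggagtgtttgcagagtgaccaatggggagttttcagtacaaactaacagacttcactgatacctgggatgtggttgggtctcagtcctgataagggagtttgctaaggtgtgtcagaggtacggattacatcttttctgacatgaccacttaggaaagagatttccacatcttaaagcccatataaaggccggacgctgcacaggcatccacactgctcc
Gkn3: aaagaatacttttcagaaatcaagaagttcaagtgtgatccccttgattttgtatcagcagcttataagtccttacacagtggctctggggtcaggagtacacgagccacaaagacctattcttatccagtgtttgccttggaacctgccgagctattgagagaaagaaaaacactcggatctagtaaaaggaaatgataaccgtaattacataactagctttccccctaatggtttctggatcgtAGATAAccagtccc
The windows lie at chr6:87350906-87351165 on the minus strand for Gkn1, chr6:87373115-87373374 on the plus strand for Gkn2 and chr6:87388926-87389185 on the minus strand for Gkn3. Each holds 1 AGATAA, on the strand shown, starting at position -82 in Gkn1, -218 in Gkn2 and -4 in Gkn3. Both strands were searched, and no other motif was searched. It is present in 3377 of 32851 windows of this length (10.3%), in 3177 of 27025 genes (11.8%), in 5 of the 10 genes with a promoter in the table among the 15 largest decreases and in 0 of 11 among the 15 largest increases. The 5 genes include Gkn1, Gkn2 and Gkn3, and both sets of 15 were picked by the contrast reported here. Their shares are therefore no measure of enrichment, and a role of Gata factors was not tested. A match is only a description of the letters in the window.

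Gkn1 measured 4.51 and 8.53 in KO proximal stomach, against 14.61 and 14.22 in WT distal stomach. Both WT distal arrays were far above both KO proximal arrays, while within the KO proximal pair replicate 2 stood well above replicate 1. The difference was -7.89 (SE 0.72, adjusted p = 2.42e-08). Gkn2 showed the same split, with 4.44 and 8.22 in KO proximal against 14.06 and 13.55 in WT distal stomach (difference -7.48, SE 0.72). Gkn3 did not, and was low on both KO proximal arrays at 5.17 and 5.36, against 12.33 and 11.26 in WT distal stomach. KO proximal replicate 2 was also above replicate 1 for the pepsinogen gene Pga5, which measured 7.12 and 8.75 against 14.75 and 14.36 in WT distal stomach. Over the 464 genes defined below as distal genes of WT, however, replicate 2 exceeded replicate 1 by 2-fold or more in 16 and was as far below it in 2, and the median difference between the replicates was 0.01. The part of carried-over glandular tissue in these traces was not tested.

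Other surface genes fell into deep and partial decreases. Cldn18, the gastric tight-junction claudin, measured 5.37 and 6.30 in KO proximal against 12.56 and 12.41 in WT distal stomach, and Anxa10, an annexin of gastric epithelium, 7.43 and 8.18 against 14.14 and 14.06. Ctse, which encodes the aspartic protease cathepsin E, was lower at -5.15 (SE 0.52). A second group stood between the 2 WT regions. The trefoil peptide gene Tff1 measured 11.26 and 11.58 in KO proximal stomach and 14.30 and 14.11 in WT distal stomach, with 6.77 and 8.70 in WT proximal stomach. The membrane mucin gene Muc1 had 11.44 and 11.20 against 13.47 and 13.53, and 6.86 and 7.64 in WT proximal stomach. Muc5ac, the gel-forming mucin of surface cells, had 7.78 and 7.64 against 9.57 and 9.75, and 5.996 and 6.25 in WT proximal stomach. For these 3 genes every KO proximal array lay below both WT distal arrays and above both WT proximal arrays, and the differences from WT distal stomach were -2.79, -2.18 and -1.96. Tff2, the trefoil gene of mucous neck cells, was alike within 2-fold, at 12.58 and 12.43 in KO proximal against 12.79 and 12.55 in WT distal stomach and 6.73 and 7.64 in WT proximal stomach. Psca, a small surface protein of gastric and urinary epithelium, was the 1 gene of the list that was higher (1.29, SE 0.48), and lost the call when any array but WT distal replicate 1 was left out.

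Genes of the gland cells were low without exception among those called. In the list of mucous neck, chief and parietal cell genes, 13 of 19 were lower, 0 higher and 2 alike within 2-fold, with a median of -2.84. Among chief cell products, Pgc (progastricsin) measured 5.81 and 6.17 in KO proximal stomach, against 12.92 and 13.15 in WT distal stomach, a difference of -7.04 (SE 0.26, adjusted p = 2.84e-14). Cblif, the gastric intrinsic factor that carries vitamin B12, had 4.68 and 5.43 against 13.26 and 12.35. Both genes were near the floor on both KO proximal arrays. The parietal cell proton pump was low in both subunits, Atp4a at -4.46 (SE 0.50) and Atp4b at -6.67 (SE 0.25), as was its potassium channel subunit gene Kcne2 (-5.50). Car2, a carbonic anhydrase, was lower at -3.40 but stayed well above the array median at 11.41 and 11.02, against 14.67 and 14.55 in WT distal stomach. Bhlha15, the transcription factor Mist1 of mature chief cells, was partly lower at 10.09 and 9.78 against 12.24 and 11.06, with 6.35 and 7.49 in WT proximal stomach. Kcnq1, the pore that pairs with Kcne2, missed the threshold, with 9.99 and 9.93 against 10.73 and 10.43.

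The remaining genes of the 15 largest decreases were not all of one kind. Dmbt1, a secreted scavenger protein of mucosae, had the largest, with 4.88 and 6.21 in KO proximal against 14.004 and 12.90 in WT distal stomach. Gsdmc2, a gasdermin family member, followed Cblif at -7.58, and Ttr, the thyroxine carrier transthyretin, was lower at -6.52. Sult1c2 (a sulfotransferase), Cyp2d26 and Cyp2c65 (cytochrome P450 enzymes) and Pdia2 (a protein disulfide isomerase) were lower at -6.84, -6.84, -6.53 and -6.78. In KO proximal minus KO distal stomach, which uses other distal arrays, the 15 differences ran between -7.44 for Cblif and -5.57 for Gkn3.

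Transcription factors divided the same way, with some near the glandular level and others near that of the forestomach. Of 31 epithelial factors tested 9 were higher, 11 lower and 10 alike within 2-fold, beside 16.1%, 16.7% and 72.1% of all genes. Gata4, a zinc-finger factor of glandular stomach, measured 6.39 and 6.69 in KO proximal stomach, against 12.23 and 12.13 in WT distal and 6.75 and 7.20 in WT proximal stomach. KO proximal arrays thus lay at the low level of the forestomach, and the difference from WT distal stomach was -5.64 (SE 0.25, adjusted p = 4.12e-13). Gata6 (-3.68) and the antral factor Pdx1 (-4.55) were lower in the same manner. Hnf4a, a nuclear receptor of gut epithelium, was intermediate at 9.78 and 9.67, against 13.34 and 13.12 in WT distal and 6.48 and 6.42 in WT proximal stomach. Foxa3 also stood between, at 8.74 and 8.18 against 11.44 and 11.04, with 5.31 and 5.52 in WT proximal stomach. Foxa2, a forkhead factor of endoderm, did not pass the test, at 10.57 and 10.81 in KO proximal against 10.10 and 9.88 in WT distal and 5.60 and 6.25 in WT proximal stomach. Both KO proximal arrays lay above both WT distal arrays, and the interval reached past 2-fold.

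Factors of the forestomach side were higher. Grhl3, a grainyhead factor of barrier formation, measured 11.91 and 12.13 in KO proximal stomach against 6.60 and 8.18 in WT distal stomach, and Grhl1 12.16 and 12.60 against 9.41 and 8.998. Both were also high in WT proximal stomach (12.77 and 13.17 on average). Irx3, Irx5 and Pitx1, homeobox genes, were higher by 3.001, 2.59 and 2.01. Sox2, a foregut factor, was higher by 1.11 (SE 0.40), a call lost when any 1 of the 4 arrays was left out. Prox1 was higher than in either WT region, at 11.22 and 11.27 against 8.58 and 8.27 in WT distal and 6.99 and 7.35 in WT proximal stomach. Klf4, Foxq1, Grhl2 and Elf3 were alike within 2-fold, with differences between -0.55 and 0.26. The intestinal factor Cdx2 was below the array medians in both groups, at 5.45 and 5.19 against 6.54 and 6.01, and was called lower at -0.96, though not without KO proximal replicate 2 or WT distal replicate 1.

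Endocrine genes moved in both directions. Of 25 tested 8 were higher and 11 lower, beside 16.1% and 16.7% of all genes. Hormone genes of the glandular stomach were low: Ghrl, which encodes ghrelin, measured 7.97 and 8.27 in KO proximal against 13.21 and 11.34 in WT distal stomach, Gast (gastrin) 7.97 and 7.93 against 11.26 and 10.21, and Sst (somatostatin) 7.10 and 7.25 against 10.43 and 8.49. Nkx6-3, a homeobox gene of gastrin and somatostatin cells, was lower at -5.23 (SE 0.60). Other members of the list were higher. Insm1, a zinc-finger factor of endocrine precursors, measured 9.98 and 10.07 in KO proximal against 7.96 and 8.59 in WT distal and 5.31 and 5.37 in WT proximal stomach. Pcsk1, which cleaves prohormones, measured 9.79 and 10.02 against 7.20 and 6.86 in WT distal stomach. Slc18a1, a monoamine transporter of vesicles, was higher by 2.39, and Iapp (amylin) by 2.31. Calcb, which encodes a calcitonin gene-related peptide, had the largest increase of the list, with 13.85 and 14.02 in KO proximal stomach, against 7.23 and 7.24 in WT distal and 6.92 and 8.09 in WT proximal stomach. The granin gene Chga did not pass, at 10.29 and 10.17 against 9.94 and 8.89.

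Several general columnar epithelial genes were at the glandular level, and others were above or below it. In the list of simple and columnar epithelium, 9 of 26 genes were alike within 2-fold, 8 were called higher and 7 lower, with a median of 0.04. This share alike, 9 of 26, is below the 72.1% of all genes, so it does not set the list apart. The simple epithelial keratin genes were among those alike: Krt8 measured 14.31 and 14.38 in KO proximal against 14.38 and 14.45 in WT distal stomach, Krt18 14.54 and 14.59 against 14.65 and 14.70, and Krt19 differed by 0.16. Krt18 averaged 10.80 in WT proximal stomach. Epcam, an adhesion molecule of simple epithelia, differed by 0.20 and Cldn7, a claudin, by 0.14. Agr2, a disulfide isomerase of mucus-secreting cells, stood closer to the glandular than to the forestomach level, with 13.78 and 13.67 in KO proximal against 14.78 and 14.63 in WT distal and 6.18 and 7.24 in WT proximal stomach, and was called lower at -0.98. Other columnar genes exceeded the glandular level. The tight-junction gene Cldn4 was higher by 3.92, the membrane mucin gene Muc4 by 3.30, the carbonic anhydrase gene Car4 by 3.08 and Cldn3 by 2.92. Lgals4, a galectin of gut epithelium, was lower at -4.03.

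**Figure D2:**
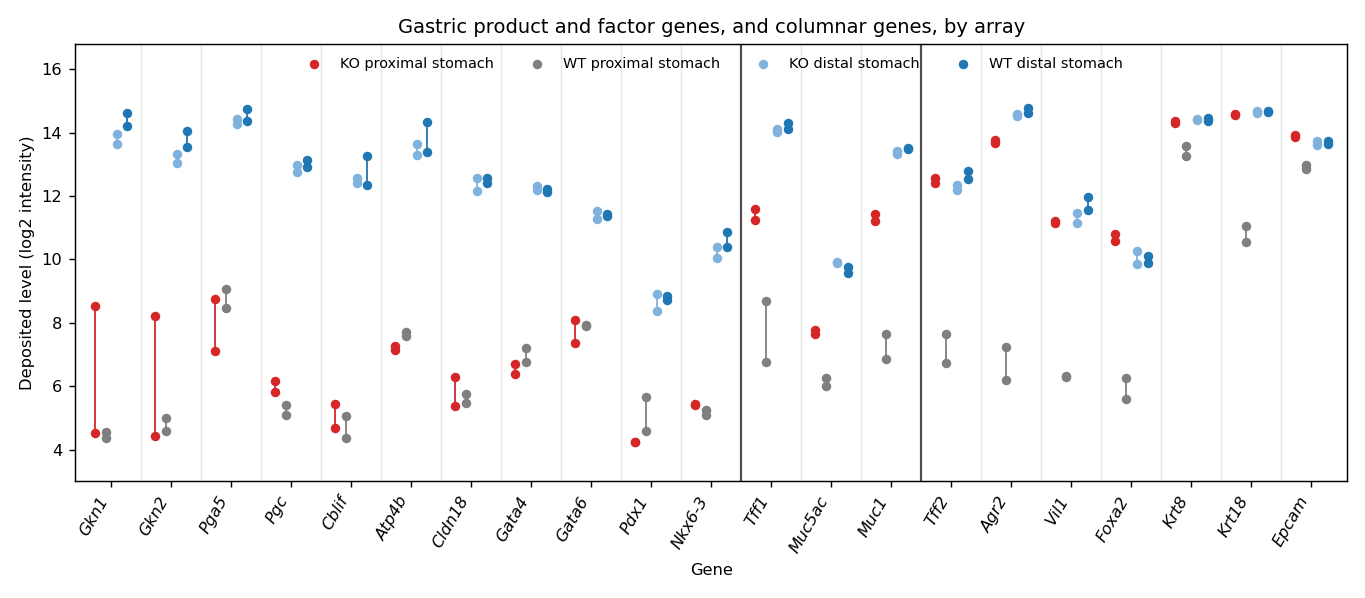
Deposited log2 level of 21 genes on each array of KO proximal, WT proximal, KO distal and WT distal stomach; each point is an array and a line joins the 2 arrays of a group. Left of the first vertical line KO proximal arrays lie far below both distal groups (Gkn1 6.52 on average against 14.41 in WT distal stomach), between the lines they lie between WT proximal and WT distal stomach, and right of the second line they lie near the distal groups (Tff2 12.50 against 12.67).

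To read regional identity on arrays that the choice of genes did not use, genes were picked by the difference between the 2 WT regions and then read in KO proximal minus KO distal stomach. In WT, 464 genes (3.41%) were called and at least 4-fold higher in distal stomach, and 560 (4.11%) at least 4-fold higher in proximal stomach. Of the 464 distal genes, 353 (76.1%) were lower in KO proximal than in KO distal stomach, 201 of them by 4-fold or more (43.3% of the 464, beside 1.8% of all genes). Another 45 (9.7%) were alike within 2-fold and 26 (5.6%) were higher in KO proximal stomach. The background over all genes in that contrast was 17.5% lower, 15.2% higher and 72.7% alike within 2-fold. The median difference of the 464 genes was -1.79 between the KO regions and -3.16 between the WT regions, where it was used to choose them. Of the 560 proximal genes, 328 (58.6%) were higher in KO proximal than in KO distal stomach, 152 (27.1%) were alike within 2-fold and 20 (3.57%) were lower, with a median of 1.09 against 3.49 in WT. Across all 13613 genes the 2 regional differences correlated at a Pearson r of 0.613 and a Spearman rho of 0.522. The correlation is a description across genes, which are not independent replicates, and the 2 differences share no array.

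**Figure D3:**
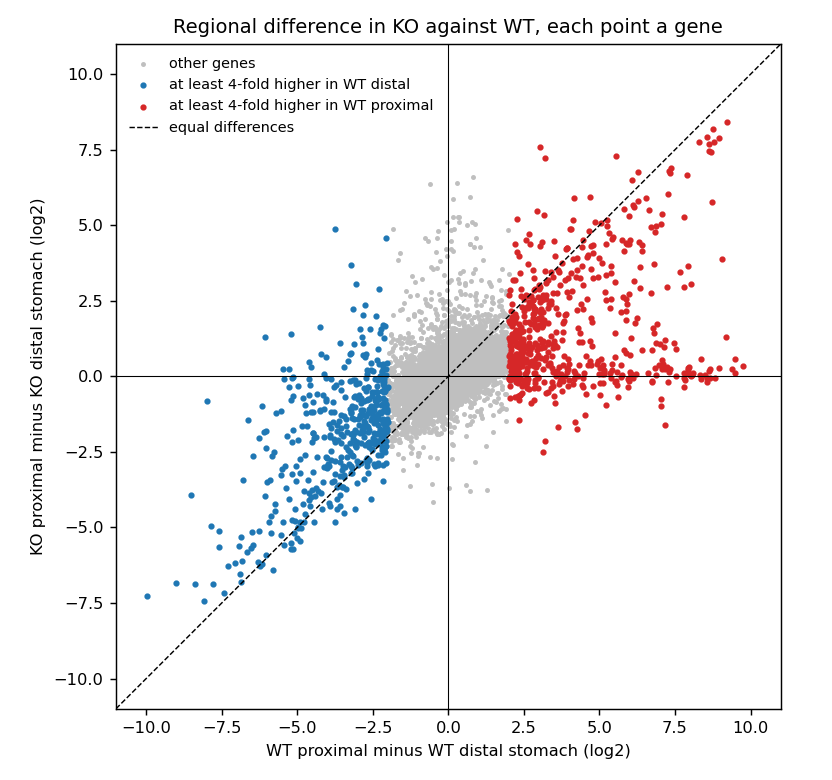
Regional difference of each of 13613 genes in KO (KO proximal minus KO distal stomach, vertical axis, log2) and in WT (WT proximal minus WT distal stomach, horizontal axis, log2); the dashed line marks equal differences. Of the 464 genes at least 4-fold higher in WT distal stomach (left), 353 were called lower in KO proximal than in KO distal stomach, and the 560 genes at least 4-fold higher in WT proximal stomach (right) include 328 called higher and 152 alike within 2-fold, many of them along the horizontal zero line.

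The 10 genes with the largest WT difference among the 45 distal genes alike in the KO regions were Tff2, Vil1, Pkp2, Slc44a4, Pls1, Kcnq1, Rnf128, Plet1, Tfcp2l1 and Krt18. Several build the brush border or the junctions of columnar cells. Vil1, which encodes the actin bundler villin of microvilli, measured 11.16 and 11.23 in KO proximal against 11.45 and 11.14 in KO distal stomach, while the WT groups had 6.29 and 6.33 in proximal and 11.97 and 11.55 in distal stomach. Pls1, another actin bundler of microvilli, had 11.41 and 11.76 against 12.04 and 11.78, with 6.49 and 7.69 in WT proximal and 12.20 and 11.95 in WT distal stomach. Both genes thus stood at the distal level in both KO regions. Pkp2, a desmosome plakophilin of simple epithelia, differed by -0.35 between the KO regions and by -5.28 between the WT regions, and the transcription factor gene Tfcp2l1 by -0.04 and -4.06. Slc44a4, a choline-like transporter, and Plet1, a surface protein of progenitor epithelia, differed by -0.07 and 0.10 between the KO regions. The ubiquitin ligase gene Rnf128 had -0.59.

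Most of the largest increases over WT distal stomach were of genes high in WT proximal stomach as well. Of 41 squamous differentiation genes 23 were higher, 0 lower and 13 alike within 2-fold, with a median of 1.12. Krt13, a keratin of suprabasal cells in internal squamous epithelia, measured 14.57 and 14.64 in KO proximal stomach, against 6.17 and 5.75 in WT distal stomach. Its partner keratin Krt4 had 14.51 and 14.66 against 6.04 and 5.60. Both were near the level of WT proximal stomach (14.64 and 14.62 on average), and the differences from WT distal stomach were 8.65 (SE 0.27) and 8.76 (SE 0.54). Sprr3, a small proline-rich envelope precursor of internal squamous epithelia, was higher by 8.60, Scel (sciellin) by 7.74, Rptn (repetin) by 7.67, Cnfn (cornifelin) by 6.84 and the stress keratin gene Krt6a by 7.01. Ppl and Evpl, the plakins periplakin and envoplakin, were higher by 5.81 and 4.13.

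Other members of the list, in part chosen after their values were seen, were near the distal level. Flg, which encodes filaggrin, measured 4.08 and 3.82 in KO proximal against 3.94 and 3.77 in WT distal stomach, with 12.96 and 12.66 in WT proximal stomach. Cdsn (corneodesmosin) had 4.52 and 4.34 against 4.18 and 4.08, Hrnr (hornerin) 4.48 and 3.77 against 3.94 and 3.69, and Krt1 differed by -0.38. The late cornified envelope genes Lce1a1, Lce1d, Lce1f and Lce3a differed from WT distal stomach by -0.04, -0.12, -0.16 and -0.11, each with an interval within 2-fold. Lor (loricrin) stood between, at 9.40 and 9.60 in KO proximal against 6.11 and 5.95 in WT distal and 15.22 and 14.97 in WT proximal stomach. The envelope precursor Sprr1a was high in all 4 groups, at 13.12 and 13.44 against 12.04 and 12.29, and was called higher by 1.12. Against WT proximal stomach, a comparison that shares the KO proximal arrays, 34 of the 41 were called lower, 1 higher and 3 alike within 2-fold, with a median of -4.03; over all genes these shares were 14.6% lower, 18.1% higher and 72.5% alike. Rptn and Cnfn, higher than in WT distal stomach, were lower than in WT proximal stomach, at -1.28 and -1.07, and Lor at -5.60. The 1 gene higher than in WT proximal stomach was Tchh (trichohyalin), at 2.48, which also exceeded WT distal stomach, by 5.15; it was chosen after its values were seen.

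Basal layer genes divided in the same way. Of 24 tested 11 were higher and 4 lower, with 9 alike within 2-fold. The share lower is near the 16.7% of all genes. Krt5, the keratin of basal cells, measured 8.22 and 8.27 in KO proximal against 7.02 and 7.30 in WT distal and 14.10 and 13.99 in WT proximal stomach. It passed the test (1.09, SE 0.19), yet stayed far below WT proximal stomach. Its partner Krt14 did not pass, with 7.08 and 6.84 against 6.86 and 6.13. The desmosomal cadherin gene Dsc3 (0.02), the p63 relative Trp73 (0.10) and the Notch ligand gene Jag2 (0.17) were at the distal level. Krt15, another basal keratin, instead reached 15.13 and 15.07, against 9.07 and 10.41 in WT distal stomach, and Pkp1, a plakophilin of stratified desmosomes, 13.41 and 13.74 against 5.74 and 5.24. Lama3, the laminin chain of hemidesmosome anchorage, was higher by 2.86, whereas its partner chain Lamb3 was lower at -1.29 and the integrin gene Itgb4 at -0.96. Neither of these decreases was called without WT distal replicate 1, and Itgb4 not without either KO proximal array.

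The largest increase of all was that of Cyp2f2, a cytochrome P450, with 13.36 and 13.32 in KO proximal against 3.71 and 4.22 in WT distal stomach (9.38, SE 1.002). In KO distal stomach it measured 4.25 and 8.66, so the KO distal replicates differed widely, and the difference from that group was 6.89 (SE 1.002). KO distal replicate 2 was also the higher one for Trp63, Krt13 (6.60 and 7.74) and Krt4 (6.38 and 7.28). Over the 560 proximal genes it exceeded replicate 1 by 2-fold or more in 15 and was as far below it in 1. The other large increases were those of Fads2b (8.18, a fatty acid desaturase family gene), Serpinb11 (7.84, a serpin), S100a3 (7.43, a calcium-binding protein), Csta1 (7.10, a cystatin), Nccrp1 (6.80) and Upk3bl (8.28).

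**Figure D4:**
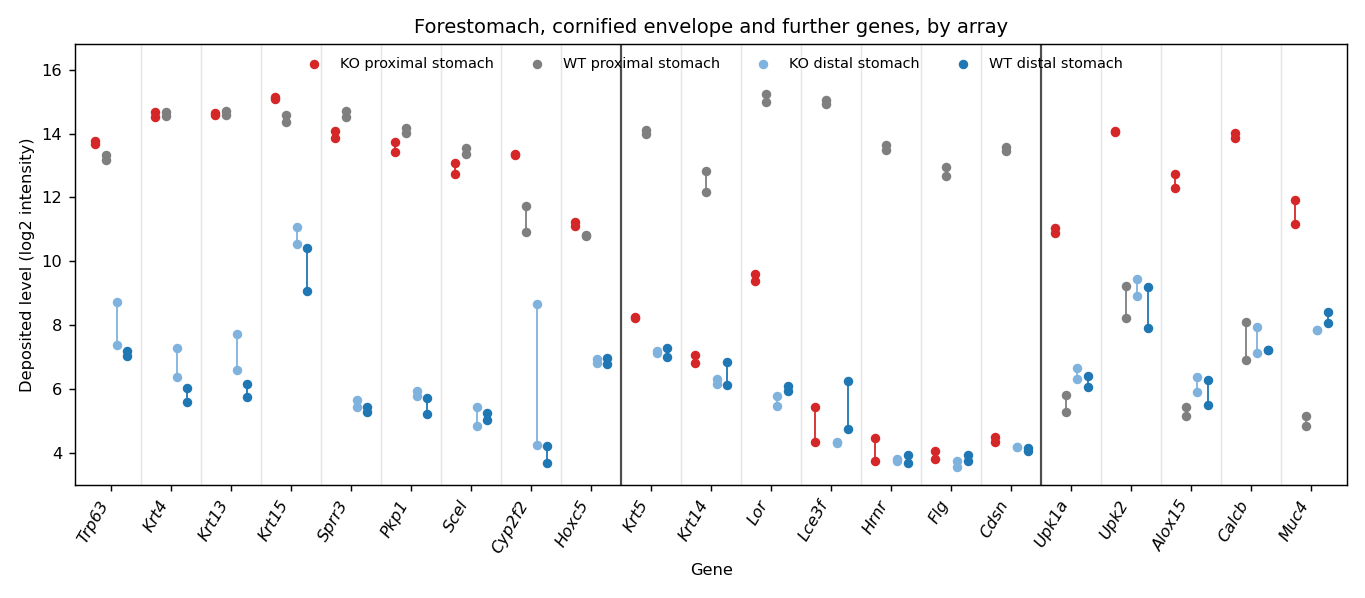
Deposited log2 level of 21 genes on each array of KO proximal, WT proximal, KO distal and WT distal stomach; each point is an array and a line joins the 2 arrays of a group. Left of the first vertical line KO proximal arrays lie near WT proximal stomach (Krt13 14.61 and 14.64 on average), except for Cyp2f2, where their average is higher. Between the lines they lie near the distal groups (Flg 3.95 against 3.85 in WT distal stomach). Lor and Krt5 there lie above the distal groups yet far below WT proximal stomach. Right of the second line KO proximal arrays lie above all 3 other groups (Alox15 12.52 against 5.91 in WT distal stomach).

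A further group of genes lay apart in level from all 3 other stomach groups. In KO proximal stomach 97 genes (0.713%) were called and at least 4-fold higher than in each of WT distal, KO distal and WT proximal stomach, and 17 (0.125%) at least 4-fold lower than in each. Some of the 97 were regional in WT as well: Spink4, Muc4 and Cldn3 were at least 4-fold higher in WT distal than in WT proximal stomach. The 3 comparisons share the KO proximal arrays, and the examples were chosen after their values were seen, ranked by the smallest of their 3 differences. Calcb and Alox15, a lipoxygenase that oxygenates arachidonic and linoleic acid, led the 97 genes. Alox15 measured 12.30 and 12.73 in KO proximal stomach, against 5.51 and 6.31 in WT distal, 6.38 and 5.92 in KO distal and 5.44 and 5.16 in WT proximal stomach. The other 3 groups were at one low level. Sox1, a transcription factor known from neural development, measured 10.20 and 10.30 in KO proximal against 5.37 and 4.597 in WT distal stomach, Lemd1 10.35 and 10.55 against 4.54 and 4.78, Aspa (aspartoacylase) 11.74 and 11.47 against 5.97 and 5.09, and A2ml1 (a protease inhibitor of the alpha-2-macroglobulin family) 9.93 and 9.80 against 4.47 and 4.35. With no filter on low values Sox1 is read from another probe set, which gave a difference of 0.05 and no call, so its probe sets disagree. By the probe sets used, Sox1, Lemd1 and A2ml1 were also low on the E18 bladder and intestine arrays, where their highest value was the 6.08 of Sox1 on KO bladder replicate 1. Among the E18 groups only KO proximal stomach averaged above the array median for these genes, and the filter asked for values above that median. Their low level elsewhere is therefore no separate support. Among the 17 lower genes the cytochrome P450 gene Cyp2s1 had 8.52 and 8.99 in KO proximal against 13.39 and 12.97 in WT distal stomach, and Rbp2, a retinol-binding protein, 8.08 and 8.18 against 12.58 and 12.10. Both were high in the 3 other stomach groups.

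Some uroplakin genes were in the high group. Uroplakins are membrane proteins of the bladder surface. Of 19 urothelial genes 9 were higher and 4 lower than in WT distal stomach, beside 16.1% and 16.7% of all genes. Upk2 measured 14.04 and 14.06 in KO proximal against 7.91 and 9.19 in WT distal stomach, a level like the 14.03 and 13.94 of WT bladder. Upk1a had 10.89 and 11.06 against 6.41 and 6.07, and Upk1b 12.37 and 12.54 against 8.28 and 7.76. Upk3a, which pairs with Upk1b in bladder, was low in both, at 6.64 and 6.78 against 8.08 and 7.62, and was called lower at -1.14; it measured 14.02 and 13.87 in WT bladder. Upk3bl had 14.36 and 14.50 in KO proximal stomach, against 6.19 and 6.12 in WT distal stomach and 10.496 and 9.98 in WT bladder. The nuclear receptor gene Pparg was lower at -4.36 (SE 0.24).

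Goblet and enterocyte genes gave no single direction. Of 19 goblet and mucus genes 9 were lower and 3 higher, beside 16.7% lower and 16.1% higher of all genes. The gel-forming mucin gene Muc5b was lower at -3.98 (SE 0.48), and Fcgbp, a mucus-binding protein, at -2.54. Muc5b measured 8.004 and 8.24 in KO proximal against 13.43 and 10.77 in WT distal stomach, where replicate 1 was the higher, as it also was for Clca1. Spink4, a secreted peptide of goblet cells, was higher by 3.79, at 13.84 and 13.90 against 10.998 and 9.15. Of 26 enterocyte genes 11 were lower and 3 higher. Fabp1, a fatty acid-binding protein, measured 5.91 and 5.66 in KO proximal against 12.01 and 11.24 in WT distal stomach, and Apoa1 6.81 and 7.15 against 12.38 and 11.95. The peptide transporter gene Slc15a1 (4.06) and the glucose transporter gene Slc5a1 (3.35) were higher, and were also high in WT proximal stomach (11.77 and 10.55 on average). Of 18 gut progenitor genes 8 were higher and 4 lower, with a median of 0.15. Olfm4 was lower at -6.16, Lgr5 at -2.84 and Sox9 at -2.33, while Axin2 was higher by 1.87 and Lrig1 by 1.72.

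Metabolic and defence genes differed widely. Of 23 genes of retinoid, alcohol and xenobiotic metabolism 12 were higher and 6 lower. Adh7, an alcohol dehydrogenase that also oxidises retinol, measured 12.24 and 11.93 in KO proximal against 8.40 and 7.04 in WT distal stomach, and Aox3, an aldehyde oxidase, 11.67 and 11.72 against 6.27 and 6.11. Both were low in WT proximal stomach too (5.89 and 5.83 on average). Crabp2, a cytoplasmic retinoic acid carrier, was higher by 3.50, Cyp26a1, which degrades retinoic acid, by 2.86, and Rdh10, which makes retinal, by 1.72. In the list of lipoxygenases and secreted defence, 5 of 21 genes were higher and 6 lower, not far from the 16.1% and 16.7% of all genes. Ltf (lactotransferrin) was higher by 4.70 and Alox12 by 5.59, whereas Bpifb1, a secreted bactericidal-family protein, was lower at -4.86 and Duoxa2, a maturation factor of a peroxide-making oxidase, at -4.27.

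Of the signalling lists (Wnt, Hedgehog, Notch, Bmp and Fgf, p53), the Wnt list had the largest share of members called. Of 25 Wnt pathway genes 16 were higher, 3 lower (0 without KO proximal replicate 2 and 1 without WT distal replicate 2) and 3 alike within 2-fold, with a median of 1.08. WT proximal stomach was much the same against WT distal stomach, with 17 of the 25 higher, 1 lower and a median of 1.13. Over all 13613 genes that contrast had 2474 higher and 3030 lower. Between KO and WT proximal stomach 7 were higher and 8 lower, beside 18.1% and 14.6% of all genes. Among ligands Wnt4 was higher by 2.46, Wnt5b by 2.13 and Wnt7b by 1.55, and Wnt11 was lower at -0.89, though not without KO proximal replicate 2 or WT distal replicate 1. The secreted inhibitor gene Sfrp1 and the receptor gene Ror2 were the other members lower, at -0.48 and -0.81. Members with large increases were Lef1, Notum and Wif1: Lef1, the nuclear partner of beta-catenin, measured 11.85 and 12.08 in KO proximal against 7.34 and 7.62 in WT distal stomach, Notum, which inactivates Wnt ligands, 11.16 and 10.95 against 6.20 and 6.09, and the secreted inhibitor Wif1 8.64 and 8.45 against 4.01 and 3.62. Axin2 and Apcdd1 were higher by 1.87 and 2.82. Wnt4 and Apcdd1 were also high in WT proximal stomach (13.07 and 11.58 on average), whereas Notum and Wif1 were not (6.93 and 3.77). Against KO distal stomach Wif1 and Notum differed by 5.12 and 5.12.

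The Hedgehog ligand genes were lower, Ihh at -3.005 (SE 0.24) and Shh at -1.64 (SE 0.46), a call lost without WT distal replicate 2. Ihh measured 8.73 and 8.13 in KO proximal, against 11.54 and 11.33 in WT distal and 5.71 and 6.12 in WT proximal stomach, and so lay between the WT regions. The receptor gene Ptch1 (0.15) and the effector gene Gli1 (-0.14), both known as Hedgehog targets, were alike within 2-fold, while the target Hhip was lower at -0.93. In the Notch list 6 of 19 genes were higher, with the receptor genes Notch3 (1.5003) and Notch4 (1.59) and the ligand gene Dll3 (1.85), and 2 lower, Notch1 (-0.70, not called without KO proximal replicate 2) and the target Hey2 (-1.83). Of 25 Bmp and Fgf genes 7 were higher, led by the mesenchymal ligand gene Fgf7 (2.33) and the receptor gene Fgfr3 (1.51), and 6 lower, led by Fgf9 (-1.48) and Bmp2 (-1.48), beside 16.1% higher and 16.7% lower of all genes. Of 13 genes of the p53 family and its targets 5 were higher, Trp63 among them, and 0 lower. Mdm2 and Cdkn1a, known p53 targets, differed by -0.05 and 0.02, and Perp, a target of p63 as well, was higher by 1.15.

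Lists of genes of the stomach wall that are not epithelial varied in how many members were alike. Of 22 fibroblast and matrix genes 18 were alike within 2-fold, and of 20 smooth muscle genes 12, beside 72.1% of all genes. Of 22 regional mesenchymal factors 13 were alike, also a share below that of all genes, including Barx1, a homeobox gene of stomach mesenchyme, at 10.57 and 10.25 in KO proximal against 10.46 and 10.77 in WT distal stomach. Hoxc5 differed by region, at 11.11 and 11.22 in KO proximal against 6.78 and 6.98 in WT distal stomach, with 10.80 and 10.83 in WT proximal and 6.96 and 6.83 in KO distal stomach. Both proximal groups were high and both distal groups low, whatever the genotype. In all 8 of these factors were higher, or 4 without WT distal replicate 1. Hoxb6 was higher by 1.99, and Isl1, a factor of the pyloric region, was lower at -3.50. In the wall, the smooth muscle integrin gene Itga8 was higher by 2.31 and the intermediate filament gene Synm lower at -2.27.

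Fewer were alike in the lists of enteric neurons, glia and Cajal cells (3 of 18), immune cells (2 of 19) and mesothelium (2 of 10). Of 18 genes of enteric neurons, glia and interstitial cells of Cajal, 9 were lower and 0 higher, with Sox10, a glial factor, at -1.54, Nos1, the neuronal nitric oxide synthase, at -1.37, and Kit, the receptor of Cajal cells, at -0.91. That count was 3 without KO proximal replicate 2, and 4 and 5 without WT distal replicate 1 and 2. In WT proximal minus WT distal stomach 11 of these 18 were lower and 0 higher, with a median of -0.93, against -0.72 here. Over all 13613 genes that WT contrast had 3030 lower and 2474 higher. The mesothelial list shares Upk1b and Upk3b with the urothelial list and Krt19 with the columnar list, so it is not of mesothelium alone. Of its 10 genes 9 were higher, led by Upk1b, with Msln (mesothelin) at 3.34, Muc16 at 3.15 and Wt1 at 0.91. That count was 5 without WT distal replicate 2. Of the same 10 genes 7 were higher and 2 lower in WT proximal than in WT distal stomach, with a median of 1.32. Macrophage genes C1qa and C1qc were higher by 0.86 and 0.90, and 6 of 19 immune genes in all were higher and 2 lower. The higher count was 1 without KO proximal replicate 1 and 1 without WT distal replicate 2. Of 18 endothelial genes 11 were alike, with Pecam1 at 0.20. Myh7, a slow myosin chain, was lower at -4.13, while Myog and Acta1, markers of skeletal muscle, did not pass (0.50 and 0.61). Of 7 ciliated cell genes tested 1 was higher, near the 16.1% of all genes, and 2 lower. The higher call was kept only when WT distal replicate 1 was the array left out, and the lower count was 1 without KO proximal replicate 2. Of 5 erythroid genes 0 were called, Hbb-y differing by -0.20.

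Proliferation genes were lower together. Of 23 tested 15 were alike within 2-fold, beside 72.1% of all genes. In small steps 18 were lower and 0 higher than in WT distal stomach. The list's median was -0.55 and its largest decrease that of the replication helicase gene Mcm6 (-0.86, SE 0.16). Mki67, the Ki-67 antigen, measured 12.25 and 11.74 in KO proximal against 12.53 and 12.85 in WT distal stomach. The count was 2 without KO proximal replicate 2, 4 without WT distal replicate 2, 17 without KO proximal replicate 1 and 20 without WT distal replicate 1, so it rests on 2 of the 4 arrays. Against KO distal stomach, a comparison that shares the KO proximal arrays, all 23 were called lower, beside 17.5% of all genes. It is thus no separate support, and its count with an array left out is not given here. Immediate early and heat shock genes were higher in 9 of 17 cases. The small heat shock protein gene Hspb1 was higher by 3.70 and was also high in WT proximal stomach (14.55 on average). Fos measured 13.68 and 13.74 in KO proximal and 11.45 and 11.65 in WT distal stomach, and 13.46 and 11.68 in KO distal stomach. Of 14 hypoxia and glycolysis genes 5 were lower (2 without KO proximal replicate 1 or WT distal replicate 1), led by Ndrg1 (-2.03), and 12 were alike within 2-fold. The liver marker Alb (albumin) measured 6.36 and 6.35 in KO proximal against 6.23 and 10.69 in WT distal stomach, and Afp (alpha-fetoprotein) 6.01 and 5.83 against 7.64 and 9.82, so WT distal replicate 2 was the high array for both. Of 12 pancreas and liver genes 5 were lower, and 2 without WT distal replicate 2. The part of liver tissue in those calls was not tested.

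**Figure D5:**
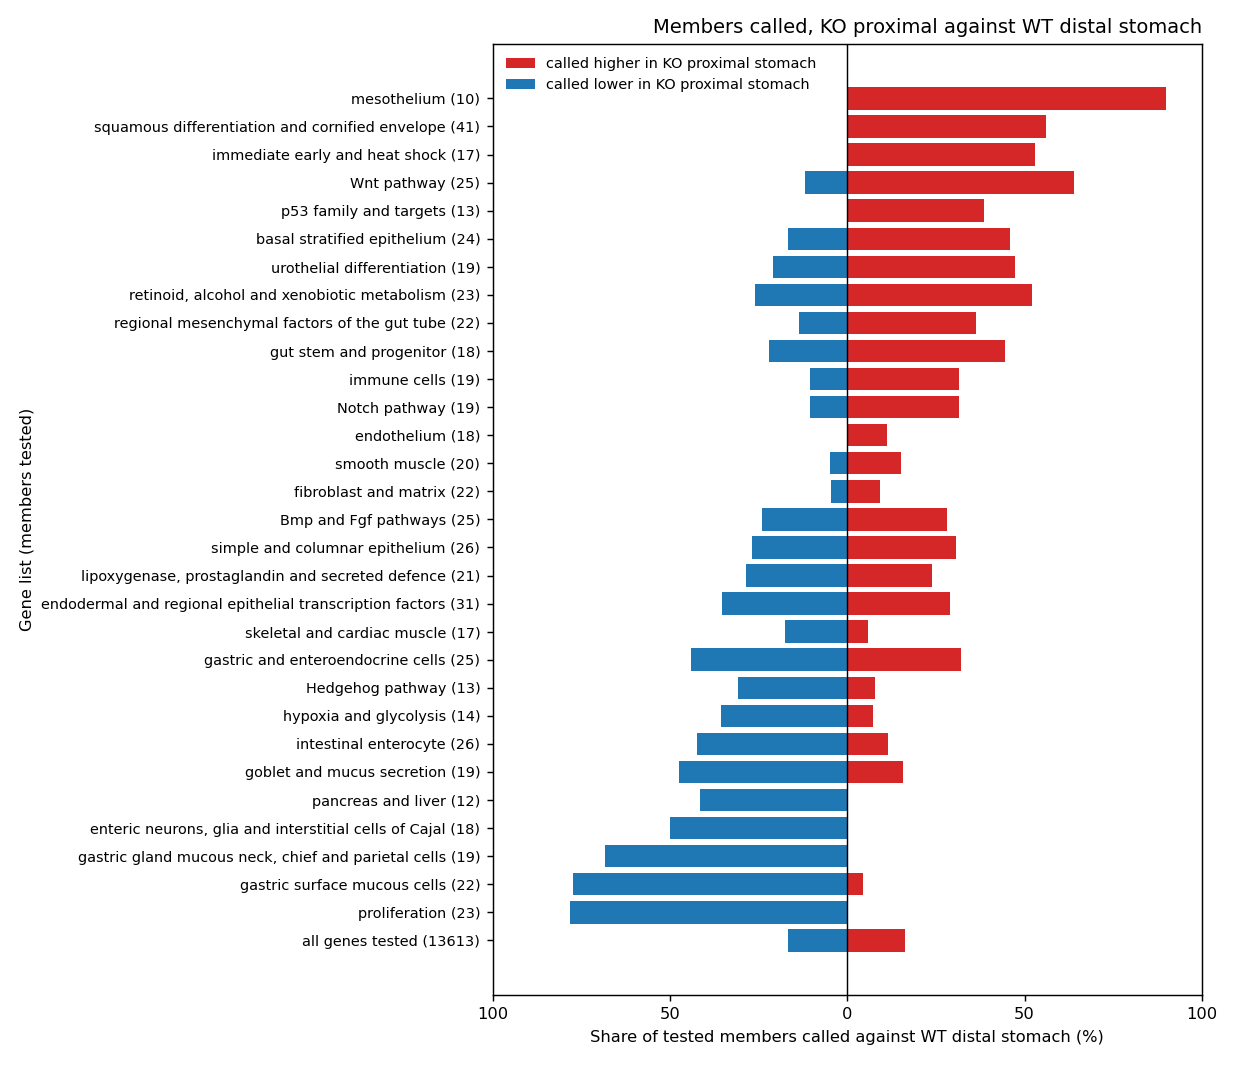
Share of the tested members of each gene list called higher (right, red) or lower (left, blue) in KO proximal stomach than in WT distal stomach, for lists with at least 10 tested members, whose number stands in brackets. The bottom bar gives all 13613 genes, 16.1% higher and 16.7% lower; squamous and mesothelial lists extend to the right, and surface mucous, gland cell and proliferation lists to the left.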

How the data were processed

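RNA was measured on 28 Affymetrix mouse 430 2.0 arrays, prepared with Trizol and a biotin 3' IVT kit per the labels. The deposited values are log2 intensities per probe set that the authors made with Affymetrix Expression Console and Partek, per the submitters' processing notes; the sources used here give neither its background correction nor its normalization. From 45101 probe sets 64 controls were left out. The remaining 45037 had 1 gene symbol (34945), several (932) or none (9160). A probe set was kept where 2 or more of the 28 arrays had it above that array's median (28866), and each of 13613 genes was read from its probe set with the highest mean.

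Differences were tested with limma 3.58.1 in R 4.3.3, fitting 14 group means on all 28 arrays, with moderation by mean level and Benjamini-Hochberg adjustment over all genes. The procedure was tested on simulated data. No label says that replicate numbers pair samples, so the main fit has no block. Deviations of same-numbered arrays correlated across genes at 0.02 for KO proximal with WT distal and 0.01 with KO distal stomach, and between -0.17 and 0.27 for the other pairs of stomach groups; Y-linked genes did split replicate 1 from 2 in all 4. Tables and figures were made with Python 3.11.15, pandas 2.3.3 and matplotlib 3.10.9. The members and gene lists were chosen with earlier results of these data known. Named genes are Trp63, the 15 largest increases and decreases with arrays apart, up to 4 called members per list and direction, up to 3 alike within 2-fold, defining markers, and the 10 distal genes alike in the KO regions. Another 48 genes, and the examples of opposite regional direction, were chosen after their values were seen. Alternatives covered the filter, the probe set per gene, scaling, arrays fitted, array weights, variance trend, the actin 3'-to-5' difference, a replicate block and each array left out. The 2 counts of genes apart from all 3 other stomach groups, and their alternatives, were added after the data were seen. The number of arrays limits the precision.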

Additional observations from a re-analysis of the deposited data

Results flagged for a closer look

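For 10 genes the regional difference ran in opposite directions in the 2 genotypes: both the KO pair (KO proximal minus KO distal stomach) and the WT pair (WT proximal minus WT distal stomach) were called, with no overlap of arrays in either, at 4-fold or more in both. The difference between genotypes itself was not tested, and the genes were chosen by this pattern after their values were seen. Among all 13613 genes, 26 of the 464 distal genes were called higher and 20 of the 560 proximal genes lower in KO proximal than in KO distal stomach. Of the genes higher in KO proximal stomach, Spink4 (a secreted goblet cell peptide) differed by 4.88 in KO and -3.76 in WT. It measured 13.84 and 13.90 in KO proximal against 8.82 and 9.15 in KO distal stomach, and 6.61 and 6.02 in WT proximal against 10.998 and 9.15 in WT distal stomach. Lrrc26, a potassium channel subunit, differed by 4.58 in KO and -2.05 in WT, and the membrane mucin gene Muc4 by 3.69 and -3.22. Hepacam2 differed by 3.04 and -3.06, the immune checkpoint gene Vtcn1 by 2.89 and -2.29, the claudin gene Cldn3 by 2.35 and -2.76, the short-chain fatty acid receptor gene Ffar2 by 2.22 and -3.15, and the glutathione transferase gene Gsta3 by 2.04 and -2.81. Those lower in KO proximal stomach were Far2, a fatty acyl reductase, at -2.50 in KO and 3.14 in WT, and Teddm3 at -2.15 and 3.20.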

How the results depend on the processing

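Leaving out 1 array gave between 2858 and 3952 calls for KO proximal against WT distal stomach and between 2767 and 3748 against KO distal stomach, the lowest of both without KO proximal replicate 2, against 4477 and 4455 with all arrays. Requiring 2-fold as well as the test left 1676 calls, and an interval within 1.5-fold rather than 2-fold left 5389 genes alike. With the actin 3'-to-5' difference as a covariate, KO proximal against WT proximal stomach gave 2059 calls and 101 of the WT proximal genes were alike between the KO regions. With only the arrays compared in the fit, 77 of the WT distal genes were alike there. Leaving out 1 array gave between 34 and 62 such distal genes and between 104 and 165 such proximal genes. Choosing regional genes at 2-fold gave 1139 distal genes, of which 695 were lower in KO proximal than in KO distal stomach and 305 alike, and 1210 proximal genes, of which 654 were higher and 445 alike. By root mean square difference the distances of KO proximal stomach were 0.972 to KO distal, 1.02 to WT distal and 1.07 to WT proximal stomach, and 1.10 to WT large intestine. The same measure gave 1.035 to KO and 1.043 to WT bladder. A filter at the 75th percentile left 59 genes at least 4-fold higher than in each other stomach group, and leaving out 1 array between 92 and 109, or between 15 and 22 for the lower genes. With the replicate number as a block, KO proximal against WT distal stomach gave 4508 calls. Of 336 named genes, the block lost 1 call and gained 3; leaving out an array lost between 22 and 34, and KO distal in place of WT distal stomach lost 19 and gained 10. No called gene of these turned its direction under any alternative run. The causes were not tested. Probes at low signal limit the size of the largest differences.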

Other observations

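Xist, transcribed from the inactive X chromosome in female cells, and the Y-linked gene Eif2s3y were both low on replicate 2 of the KO stomach groups. Xist measured 6.67 and 6.19 on KO proximal replicates 1 and 2, 6.15 and 13.47 on WT proximal replicates, 7.12 and 6.16 on KO distal replicates, and 6.96 and 13.66 on WT distal replicates. Eif2s3y measured 11.97 and 4.18 on KO proximal replicates, 12.03 and 4.70 on WT proximal replicates, 11.89 and 4.16 on KO distal replicates, and 12.01 and 4.20 on WT distal replicates.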
